A study of Mus musculus with 13 samples.

Results

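The microRNA genes Mir183, Mir96 and Mir182, which lie next to each other on chromosome 6, and Mir204 and Mir211, which share a seed, were followed in the retina of PGC-1α knockout (KO) and wild type (WT) mice exposed to bright light or kept in the dark. A gene was included when a probe set of the array carried its symbol and no other. Each of the 5 symbols had 1 such probe set, so that 5 of 34760 probe sets are described. The 5 were chosen by their known response to light in the mouse retina and with their intensities in these light and dark arrays known, so the differences between light and dark are given as a description. For these, no p is printed, and the number of genes past the threshold stands beside the share of all genes with nothing read from it. The 2 retinae of each mouse were pooled, and each mouse gave 1 array of the type Affymetrix Mouse Gene 1.0 ST. KO mice lack PGC-1α in the whole body, and all mice were on a C57BL/6 background and 6 to 13 weeks old. The groups were KO light with 3 arrays, WT light with 3, KO dark with 3 and WT dark with 4. Mice were dark-adapted for 16 h, and the light groups then received 15000 lux for 2 h and spent the following night in darkness. By the labels the mice of the light groups were male and those of the dark groups female, apart from the male WT dark replicate 4, so that sex and light cannot be told apart in the comparisons of light with dark. The methods of the study name male mice only.

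MicroRNAs are cut from a hairpin precursor and guide the silencing complex to messenger RNAs that pair with the seed, the short stretch behind their first base. The cluster of miR-183, miR-96 and miR-182 is transcribed as one unit and is known from photoreceptors and other sensory cells, where its loss leads to degeneration. In the mouse retina these microRNAs and miR-204 and miR-211 are known to decline in darkness and to rise again in light. The light groups here spent a night in darkness after the bright light, so that response was not measured while the light was on. MiR-204 is also abundant in the retinal pigment epithelium and miR-211 in pigment cells and bipolar cells. The probe sets are placed on the precursor, and the mature microRNA was not measured. Whole retina was hybridized, so that fewer cells of a type and less RNA per cell cannot be told apart.

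The mature 5p strands are shown because they define how the 5 genes group, with bases 2 to 8, the seed, in capitals. The sequences are those of RefSeq on the mouse assembly GRCm38.p6, in which all 5 genes were found.
miR-183-5p: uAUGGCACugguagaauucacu
miR-96-5p: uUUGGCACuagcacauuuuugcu
miR-182-5p: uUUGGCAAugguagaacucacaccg
miR-204-5p: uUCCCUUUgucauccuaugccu
miR-211-5p: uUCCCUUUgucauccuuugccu
Counted from 1 at the 5′ end, the seed of miR-183-5p differs from that of miR-96-5p by A2U and from that of miR-182-5p by A2U and C8A, and miR-182-5p differs from miR-96-5p by A8C in the seed. The cluster thus holds 3 related but unequal seeds. MiR-204-5p and miR-211-5p have 1 seed in common and are identical at 21 of 22 bases, with A17U as the difference. Among the 1679 mature mouse microRNAs of the table, miR-7670-3p is the other carrier of this seed.

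The precursors of Mir183 and Mir204 are shown because the array reads the hairpin, with the mature arms in capitals.
Mir183: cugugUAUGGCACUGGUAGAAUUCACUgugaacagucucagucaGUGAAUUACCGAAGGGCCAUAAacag
Mir204: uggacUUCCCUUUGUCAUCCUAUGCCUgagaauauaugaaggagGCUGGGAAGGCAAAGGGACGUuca
Mir183 lies at chr6:30169668-30169737, Mir96 at chr6:30169446-30169551 and Mir182 at chr6:30165918-30165992, all on the minus strand of GRCm38.p6. Between Mir183 and Mir96 lie 116 bases and between Mir96 and Mir182 3453, and all 3 are within the long noncoding gene Mirc35hg, which was not analysed here. Mir204 lies at chr19:22750605-22750672 within Trpm3 and Mir211 at chr7:64205806-64205911 within Trpm1, on the plus strand. Trpm3 and Trpm1 encode cation channels, and Trpm1 is the channel through which ON bipolar cells respond to light.

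The deposited values are intensities that the authors normalized between arrays, with a median per array of 141 to 146. They were taken to log2 and averaged per gene, which gave 19937 genes. The array labelled WT dark replicate 4 went against its group: over all genes its mean Pearson r was 0.997 with KO light replicates 1 and 2 and 0.989 with the other WT dark arrays. For KO light replicate 3, as it is labelled, the mean r was 0.997 with WT dark replicates 1 to 3 and 0.992 with KO light replicates 1 and 2. Values are therefore given in 2 arrangements. As labelled, the array labelled WT dark replicate 4 was left out and 3 arrays per group were compared. With the exchanged arrays, it was taken as the third KO light array and KO light replicate 3 was left out. Differences are log2 differences from limma, in 1 model of the 4 groups. To be called, a gene needed an adjusted p under 0.05 (Benjamini-Hochberg, over all genes) and a ratio of 1.2 or more, or of 0.87 or less.

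Mir183, Mir96 and Mir182 were highest in the dark and tended to the same arrays at both ends. Mir183 had log2 intensities of 5.45, 5.78 and 6.63 in KO light replicates 1 to 3 and 5.68, 6.15 and 5.83 in WT light replicates 1 to 3. In the dark it had 6.81, 6.92 and 6.67 in KO dark replicates 1 to 3 and 6.44, 6.32 and 6.47 in WT dark replicates 1 to 3. The array labelled WT dark replicate 4 had 5.43, the lowest of all 13 arrays, and the array labelled KO light replicate 3 was above every other light array. Mir96, the middle gene of the cluster, had 6.63, 7.19 and 7.60 in KO light and 7.04, 7.23 and 6.79 in WT light. Its dark values were 7.58, 7.67 and 7.41 in KO dark and 7.11, 7.58 and 7.38 in WT dark, with 6.63 in the array labelled WT dark replicate 4. KO light ran across nearly the whole range of Mir96, while KO dark stayed in its upper part. Mir182, the gene farthest downstream, had 7.20, 7.71 and 8.38 in KO light and 7.65, 8.04 and 7.69 in WT light. In the dark it had 8.32, 8.45 and 8.25 in KO dark and 8.07, 8.001 and 8.41 in WT dark, and 7.22 in the array labelled WT dark replicate 4. In Mir183, Mir96 and Mir182 alike, the lowest 2 arrays of the 13 were KO light replicate 1 and the array labelled WT dark replicate 4, and KO dark replicate 2 was the highest.

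**Figure D1:**
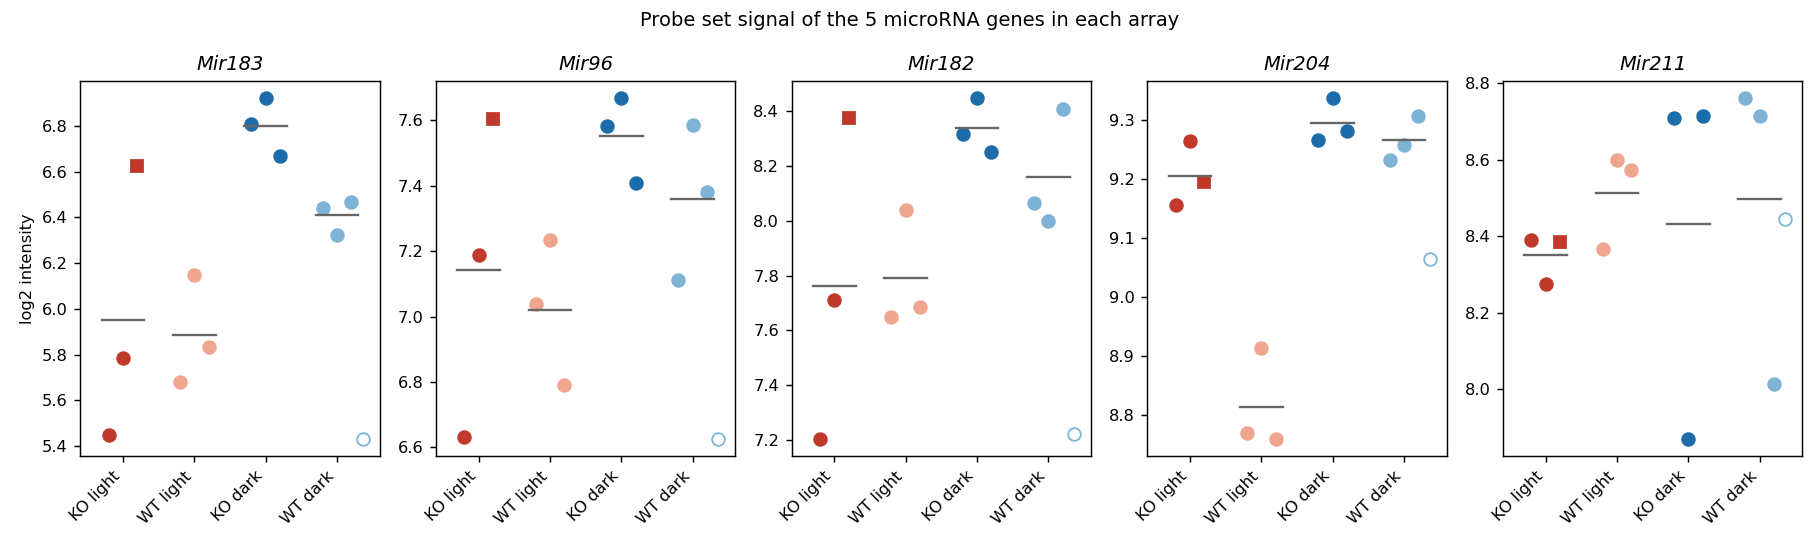
Log2 intensity of each microRNA gene in all 13 arrays, in 1 panel per gene with its own axis. Points are arrays, in the order of their replicate numbers, and lines are means over replicates 1 to 3; the open circle is the array labelled WT dark replicate 4 and the square the array labelled KO light replicate 3. For Mir183 these 2 arrays had 5.43 and 6.63.

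In the dark, Mir183 was higher in KO than in WT mice in every array, without passing the test. It averaged 6.80 ± 0.13 in KO dark and 6.41 ± 0.08 in WT dark (SD, n = 3 each), a difference of 0.39 (SE 0.22, limma adjusted p = 0.83), which stayed between 0.33 and 0.63 over all alternatives (adjusted p 0.0646 to 0.999). The 2 groups did not overlap, which was so for 9.26% of all genes in this direction. Mir96 differed by 0.19 (SE 0.20, adjusted p = 0.95) and Mir182 by 0.18 (SE 0.22, adjusted p = 0.968), with overlapping groups. Between KO dark and WT dark limma called 0 of the 5, against 0.0752% of all genes, and 0 had an unadjusted p under 0.05, against 7.1% of all genes. Without moderated variances the number called was 0 as well. The exchange left the dark arrays and their differences as they were, but the spread was smaller. Mir183 then had an SE of 0.12 (adjusted p = 0.186), and 0 of the 5 were called, against 0.878% of all genes.

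After light, all 3 cluster genes had lower means in KO mice than in the dark. As labelled the difference between KO light and KO dark was -0.85 (SE 0.22) for Mir183, -0.41 (SE 0.20) for Mir96 and -0.58 (SE 0.22) for Mir182, a ratio of 0.556 for Mir183. Without KO light replicate 1 Mir96 had -0.16 and Mir182 -0.30, and with KO light replicate 3 left out instead they had -0.64 and -0.88. As labelled none of the 3 was past the threshold, against 0.1% of all genes. With the exchanged arrays KO light averaged 5.56 ± 0.20 for Mir183, 6.82 ± 0.32 for Mir96 and 7.38 ± 0.29 for Mir182 (SD, n = 3 each). The differences from KO dark were -1.25 (SE 0.12), -0.74 (SE 0.16) and -0.96 (SE 0.14) in that order, a ratio of 0.422 for Mir183. All 3 were then past the threshold, against 13.3% of all genes, that is 2653 genes as opposed to 20 as labelled. Every KO light array lay below every KO dark array for Mir183 in both arrangements, and for Mir96 and Mir182 with the exchanged arrays. Such a separation occurred in 6.67% of all genes as labelled and in 18% with the exchanged arrays. Among the 291 other microRNA genes of the array it was more frequent, at 10.3% and 32.0%.

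In WT mice the same genes were lower in light by smaller amounts. Mir183 averaged 5.89 ± 0.24 in WT light and 6.41 ± 0.08 in WT dark (SD, n = 3 each), a difference of -0.52 (SE 0.22) without overlap, as for 10.7% of all genes. Of the other microRNA genes 19.6% were likewise lower in WT light without overlap. Mir96 differed by -0.34 (SE 0.20) and Mir182 by -0.37 (SE 0.22), and both had overlapping groups. As labelled none of the 3 was past the threshold, against 0.431% of all genes. With the exchanged arrays, whose effect here is on the spread alone, Mir183 was past it, against 4.41% of all genes.

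Between the genotypes in light, no cluster gene kept its sign over all alternatives. The sign of Mir183 and Mir96 turned with the exchange. Mir182 was lower in KO light in both arrangements, but as labelled its sign turned without KO light replicate 1 (0.25) and without WT light replicate 2. As labelled the difference between KO light and WT light was 0.07 (SE 0.22, adjusted p = 0.935) for Mir183, 0.12 (SE 0.20, adjusted p = 0.853) for Mir96 and -0.03 (SE 0.22, adjusted p = 0.974) for Mir182. With the exchanged arrays it was -0.33 (SE 0.12, adjusted p = 0.0861) for Mir183, -0.21 (SE 0.16, adjusted p = 0.443) for Mir96 and -0.41 (SE 0.14, adjusted p = 0.0837) for Mir182. The interval of Mir183 ran from -0.42 to 0.55 as labelled and from -0.58 to -0.08 with the exchanged arrays. Groups overlapped in each case, and no cluster gene was called in either arrangement. The comparisons of KO light with WT light and with KO dark share the KO light arrays, so the exchange moves both.

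**Figure D2:**
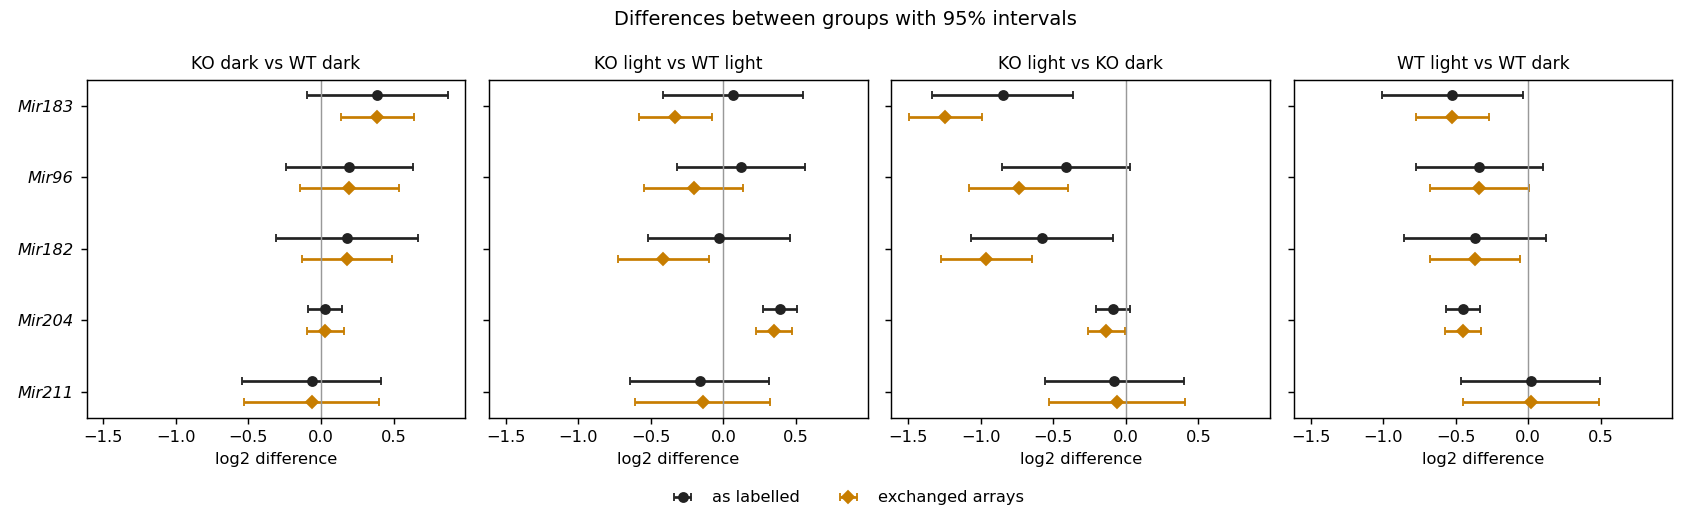
Log2 differences of the 5 genes in 4 comparisons, each the first group minus the second, with 95% intervals from limma (circles, as labelled; diamonds, exchanged arrays; 3 arrays per group). Mir204 in KO light against WT light stayed near 0.39 and 0.35, while Mir183, Mir96 and Mir182 moved towards lower values in both comparisons that hold KO light.

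The markers of photoreceptors, the cells in which the cluster is best known, were lowest in the same 2 arrays as the cluster, KO light replicate 1 and the array labelled WT dark replicate 4. The mean log2 intensity of 8 rod genes ranged from 11.67 to 11.97 over KO light arrays and from 11.99 to 12.06 over WT light arrays, with 11.62 in the array labelled WT dark replicate 4, against 11.99 to 12.02 in KO dark and 12.001 to 12.08 in WT dark replicates 1 to 3. All 8 had a lower mean in KO light than in WT light (median -0.18 as labelled, none called, and -0.32 with the exchanged arrays, 6 called). Of 9 cone genes 8 had a lower mean (median -0.17, none called, and -0.32 with the exchanged arrays, 4 called). Over all genes the medians were -0.01 and -0.02. Between WT light and WT dark rods had a median difference of -0.02 and cones of -0.13, both with none called, and between KO dark and WT dark 7 of 8 rod genes had a lower mean while all 3 cluster genes had a higher one. The mean of 7 genes of reactive glia ranged from 7.95 to 9.66 over KO light arrays and from 7.93 to 8.72 over WT light arrays, against 7.68 to 7.75 in KO dark and 7.57 to 7.88 in WT dark, and 9.81 in the array labelled WT dark replicate 4. The part of these changes in the values of the cluster was not tested.

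Mir204 followed another pattern: its level in light lay clearly below that in the dark in WT mice and narrowly below it in KO mice. It had 9.16, 9.26 and 9.19 in KO light replicates 1 to 3 and 8.77, 8.91 and 8.76 in WT light replicates 1 to 3. In the dark it had 9.27, 9.34 and 9.28 in KO dark and 9.23, 9.26 and 9.31 in WT dark replicates 1 to 3. The array labelled WT dark replicate 4 had 9.06, below the other dark arrays and above all WT light arrays. Every KO light array was thus above every WT light array in both arrangements, as was the case in 5.63% of all genes as labelled and in 13.9% with the exchanged arrays. Mir204 averaged 9.20 ± 0.06 in KO light and 8.81 ± 0.09 in WT light (SD, n = 3 each). The difference of 0.39 (SE 0.05, ratio 1.31) passed the test (limma adjusted p = 0.0225), and with the exchanged arrays it was 0.35 (SE 0.06, adjusted p = 0.00212). The 5 genes were chosen with the intensities of these light arrays known, so this test is not independent of that choice. Mir204 was 1 of 5 microRNA genes called, against 0.176% of all genes as labelled and 8.23% with the exchanged arrays. The call was lost without KO light replicate 2 (0.36, adjusted p = 0.0656), without WT light replicate 1 (0.37, adjusted p = 0.0941) and without WT light replicate 3 (0.36, adjusted p = 0.0864). It was also lost with all 13 arrays (adjusted p = 0.067), without moderated variances (adjusted p = 0.0568) and with the 2 light groups fitted alone (adjusted p = 0.386). The difference stayed between 0.30 and 0.44 over all alternatives (adjusted p 0.00212 to 0.386). In the dark the genotypes differed by 0.03 (SE 0.05, adjusted p = 0.983), with an interval from -0.09 to 0.15.

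Set against darkness, Mir204 differed by -0.09 (SE 0.05) in KO mice as labelled, and by -0.13 (SE 0.06) with the exchanged arrays. Every KO light array was below every KO dark array in both arrangements, as in 6.67% and 18% of all genes and in 10.3% and 32.0% of the other microRNA genes. In WT mice it differed by -0.45 (SE 0.05), a ratio of 0.731, and was past the threshold in both arrangements, against 0.431% and 4.41% of all genes. The difference between light and dark in KO mice exceeded that in WT mice by 0.36 for Mir204, with an interval from 0.20 to 0.53, and 0.32 with the exchanged arrays (0.14 to 0.50). For the cluster the same quantity was -0.32 for Mir183 (-1.01 to 0.36), -0.07 for Mir96 (-0.69 to 0.55) and -0.21 for Mir182 (-0.90 to 0.48). With the exchanged arrays it was -0.72 for Mir183 (-1.08 to -0.36), -0.40 for Mir96 (-0.88 to 0.08) and -0.59 for Mir182 (-1.04 to -0.15). These intervals are not adjusted for the number of genes. For this quantity the threshold was an adjusted p under 0.05 alone, without a ratio. After adjustment 0 of the 5 were past it as labelled, against 0.0602% of all genes, and Mir183 was so after the exchange, against 2.78%. Mir183 was no longer past it after the exchange without KO light replicate 1 or without the array labelled WT dark replicate 4. Without KO light replicate 2 it was.

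Among genes of pigment cells, in which Mir204 is abundant, those of melanin synthesis had higher means in KO light than in WT light, and those of the pigment epithelium were divided. The mean of 12 genes of the pigment epithelium and of melanin synthesis ranged from 7.22 to 7.92 over KO light arrays and from 6.70 to 7.31 over WT light arrays, against 7.20 to 7.83 in KO dark and 7.41 to 7.60 in WT dark replicates 1 to 3, and 7.71 in the array labelled WT dark replicate 4. Of these genes 9 of 12 had a higher mean in KO light than in WT light, with a median difference of 0.25 and none called. The 3 with a lower mean, Rpe65, Rgr and Lrat, are among the 6 genes of the pigment epithelium, while all 6 genes of melanin synthesis had a higher mean. These 6 were highest in KO light replicate 2, where Dct had 10.55 and Mlana 8.60. In KO light replicate 1 Dct had 7.81 and Mlana 7.15, and Mlana, Slc45a2 and Tyr lay within the WT light range. After the exchange 10 of 12 had a higher mean in KO light, with a median of 0.37 and Dct, Tyrp1 and Pmel, genes of melanin synthesis, called. Tyrp1 differed by 1.82 (SE 0.38, adjusted p = 0.0846) as labelled and 1.71 (SE 0.39, adjusted p = 0.0123) with the exchanged arrays. Rpe65, the isomerase that defines the pigment epithelium, had -0.41 (SE 0.55, adjusted p = 0.804) and -0.31 (SE 0.55, adjusted p = 0.765). Between WT light and WT dark the mean was lower for 11 of the 12 (median -0.30), and Best1, a chloride channel of the pigment epithelium, was called (-0.30, SE 0.06). Array by array the match was loose: WT light replicate 2 had the lowest pigment mean and the highest Mir204 of its group, and KO light replicate 1 had a pigment mean within the WT light range but Mir204 at 9.16. The part of pigment cells in the values of Mir204 was not tested.

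Mir211 showed no difference that passed the test, and its spread was largest in the dark. It had 8.39, 8.27 and 8.39 in KO light and 8.37, 8.60 and 8.57 in WT light. In the dark it had 8.71, 7.87 and 8.71 in KO dark and 8.76, 8.71 and 8.01 in WT dark replicates 1 to 3, with 8.44 in the array labelled WT dark replicate 4. One array in each dark group, KO dark replicate 2 and WT dark replicate 3, was lower than all the others, so that the SD was 0.07 in KO light and 0.13 in WT light, but 0.49 in KO dark and 0.42 in WT dark (n = 3 each). Over replicates 1 to 3, Rpe65, Rgr, Ttr, Lrat and Rdh5 of the pigment epithelium were lowest in these same dark arrays. Rpe65 had 7.44, 5.92 and 8.09 in KO dark and 7.21, 7.20 and 6.52 in WT dark replicates 1 to 3. Best1, also of the pigment epithelium, was lowest in KO dark replicate 1 (5.91) instead. Genes of melanin synthesis were divided in KO dark replicate 2: Tyrp1 was highest of its group there (8.94) and Dct lay in the middle (8.04). Pmel (7.74), Mlana (7.19), Slc45a2 (6.38) and Tyr (4.96) were lowest of theirs, by narrow margins. No gene of melanin synthesis was lowest in WT dark replicate 3, and Dct, Pmel, Mlana and Slc45a2 were highest there (8.55, 7.84, 7.31 and 6.38). In the light Rpe65 did not run with Mir211, since WT light replicate 2 had the lowest Rpe65 of all, 5.53, and the highest Mir211 of its group. Mir32, the gene most like Mir211 over the 13 arrays (r 0.91), was also most spread in the dark. Its SD was 0.50 in KO dark and 0.56 in WT dark, against 0.08 in KO light and 0.16 in WT light. Rny1, the gene with the lowest r (-0.85), had 0.63 and 0.43, against 0.04 and 0.08. The part of pigment cells in the values of Mir211 was not tested. KO light and WT light differed by -0.16 (SE 0.22, adjusted p = 0.806), or -0.14 (SE 0.22, adjusted p = 0.716) with the exchanged arrays. KO dark and WT dark differed by -0.07 (SE 0.22, adjusted p = 0.993), a value whose sign turned without KO dark replicate 2 (0.22). Light minus dark was -0.08 in KO and 0.02 in WT mice as labelled (SE 0.22 each). Between KO light and WT light the interval reached from -0.64 to 0.31 for Mir211, and from 0.27 to 0.51 for Mir204.

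Ordered by their means as labelled, Mir183 and Mir96 ran from KO dark through WT dark and KO light to WT light, and Mir182 from KO dark through WT dark and WT light to KO light. Neighbours in these orders overlapped, except that the KO dark arrays of Mir183 lay above those of WT dark. Mir204 had the order KO dark, WT dark, KO light, WT light, in which the first 3 groups overlapped as neighbours and WT light stood apart. Mir211 had the order WT light, WT dark, KO dark, KO light with overlap throughout. After the exchange KO light was the lowest group of all 3 cluster genes, as it already was for Mir182, and kept its place in Mir204 and Mir211.

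The genes in which the microRNAs lie, or which flank them, were measured by their own probe sets. Trpm3, the host of Mir204, had 10.69, 10.76 and 10.61 in KO light and 10.47, 10.52 and 10.57 in WT light. The groups did not overlap, as in 5.63% of all genes, and the difference was 0.17 (SE 0.05, adjusted p = 0.199), or 0.20 (SE 0.04, adjusted p = 0.00835) with the exchanged arrays, where the ratio stayed under the threshold and Trpm3 was not called. Trpm1, the host of Mir211, differed by 0.16 (SE 0.05, adjusted p = 0.177), or 0.21 (SE 0.04, adjusted p = 0.00348) with the exchanged arrays, again under the ratio threshold, whereas Mir211 itself had -0.16. Between WT light and WT dark Trpm3 differed by -0.07 (SE 0.05), against -0.45 for the Mir204 within it. Nrf1, a transcription factor of nuclear genes for mitochondria, and Ube2h, a ubiquitin-conjugating enzyme, lie on either side of the cluster. Between KO light and KO dark Nrf1 differed by -0.10 (SE 0.07) and Ube2h by -0.01 (SE 0.07), and -0.16 (SE 0.06) and 0.04 (SE 0.06) with the exchanged arrays, against -0.85 and -1.25 for Mir183. Neither was called in any comparison.

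Across all 13 arrays the 3 cluster genes varied together. Pearson r was 0.96 between Mir183 and Mir182, 0.91 between Mir96 and Mir182 and 0.90 between Mir183 and Mir96, and the deviations from the group means of the 12 arrays fitted had 0.95, 0.82 and 0.79. Mir204 and Mir211, in spite of their common seed, had an r of -0.20. Mir204 had 0.46 with Trpm3 and Mir211 had -0.26 with Trpm1. These are descriptions over arrays that share groups, sex and processing. With the 5 members left out, and by the highest r over the 13 arrays, the genes most like Mir183 were Erc2 (0.96), Celf2 (0.95) and Retn (0.95), those most like Mir96 were Nt5dc2 (0.95), Celf2 (0.94) and Adamtsl1 (0.92), and those most like Mir182 were Celf2 (0.97), Mir124a-3 (0.96) and Papln (0.94). Erc2 encodes a protein of the presynaptic active zone and Celf2 a regulator of splicing. The genes most like Mir204 were Gstm2 (0.98), a glutathione transferase, Pde9a (0.93), a phosphodiesterase for cyclic GMP, and Asic2 (0.93), an acid-sensing ion channel, and those most like Mir211 were Mir32 (0.91), Mospd3 (0.87) and Rbck1 (0.87). Gstm2 averaged 7.13 ± 0.05 in KO light and 6.74 ± 0.10 in WT light (SD, n = 3 each), and 7.21 ± 0.02 in KO dark and 7.13 ± 0.04 in WT dark.

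Among all microRNA genes of the array, the cluster genes and Mir204 stood near the ends of the range in several comparisons. The difference of Mir183 between KO light and KO dark was below those of all 291 other microRNA genes, that of Mir182 below those of 290 and that of Mir96 below those of 289. After the exchange Mir183 and Mir182 were below all 291. Between WT light and WT dark 289 of the 291 had a higher difference than Mir183, 287 than Mir204, 282 than Mir182 and 279 than Mir96, and 97 had a higher one than Mir211. Between KO light and WT light 289 of the 291 had a lower difference than Mir204 as labelled. Since the 5 were chosen with these results known, their place is a description. The other microRNA genes had a median of -0.05 between KO light and KO dark, with 70.8% of them lower and none called as labelled, and of -0.04 between WT light and WT dark, with 62.5% lower and Mir380 and Mir181a-1 called. Mir181a-1, from a family abundant in inner retinal neurons, had 7.93, 7.93 and 7.80 in KO light, 7.44, 7.57 and 7.62 in WT light, 8.24, 8.30 and 8.16 in KO dark and 8.02, 7.83 and 7.94 in WT dark replicates 1 to 3. As with Mir204, its KO light arrays lay above all its WT light arrays, as in 5.63% of all genes as labelled. Unlike those of Mir204, its KO dark arrays also lay above its WT dark replicates 1 to 3, as in 9.26% of all genes. After the exchange 47 of the 291 were called lower and 3 higher between KO light and KO dark, among them Mir495 (-0.74), Mir124a-2 (-0.63) and Mir380 (-0.59) with the largest differences. MiR-124 is the most abundant microRNA of neurons.

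**Figure D3:**
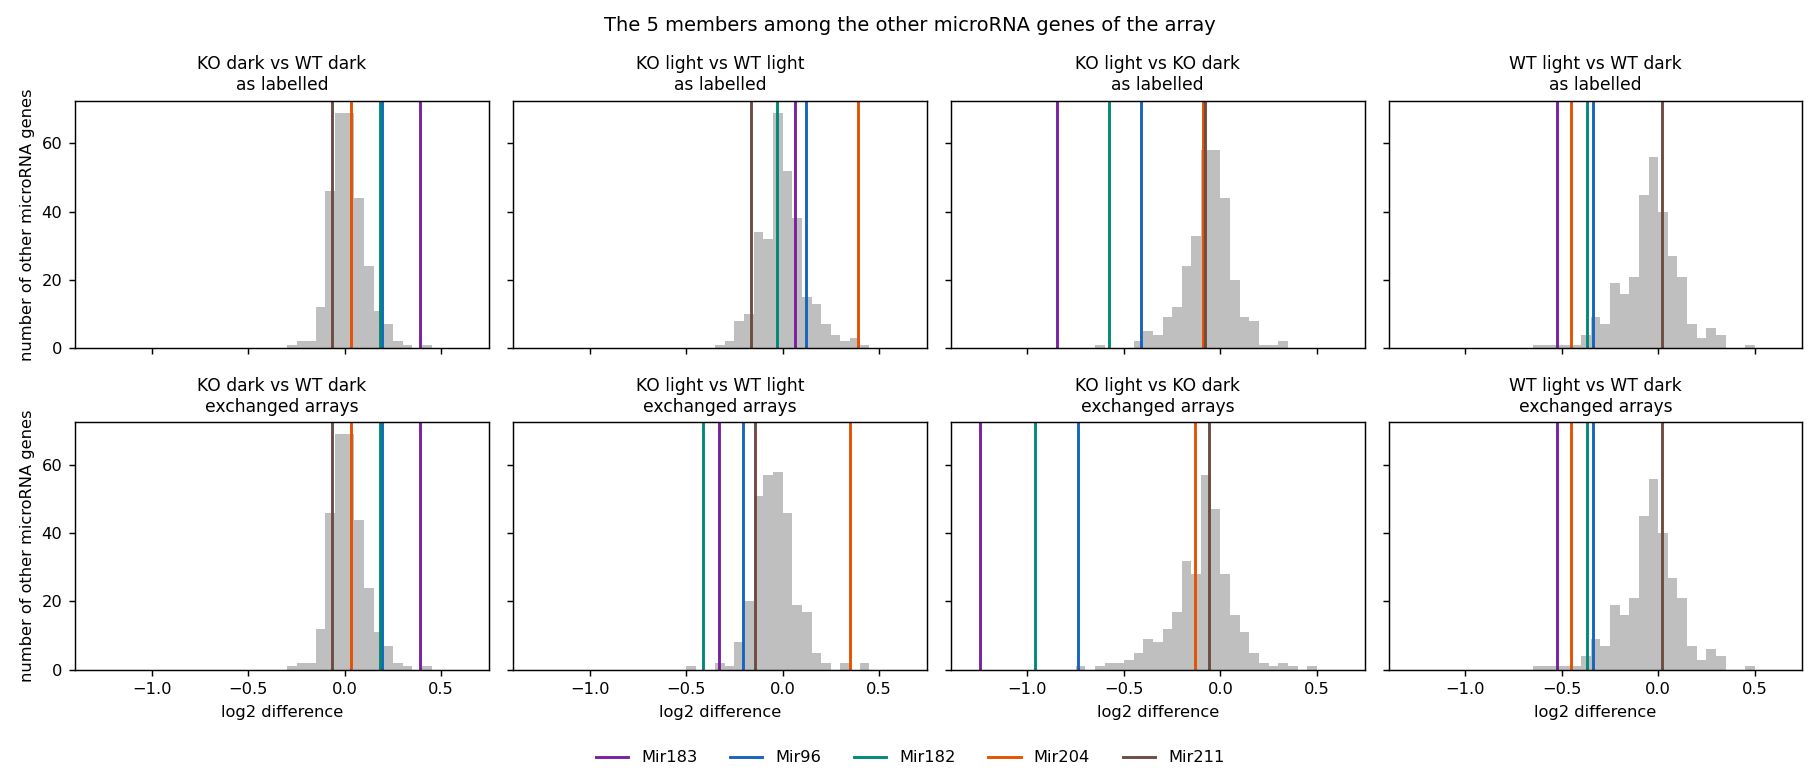
Distribution of log2 differences over the 291 other microRNA genes (grey, number of genes per bin of 0.05) with the 5 members as vertical lines, as labelled in the upper row and with the exchanged arrays in the lower row. Mir183, at -0.85 and -1.25, lies below all others between KO light and KO dark, and Mir204, at 0.39 and 0.35, lies at the upper end between KO light and WT light.

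No gene described as a target of these microRNAs was called as labelled. Of 9 genes named for the cluster 7 had a higher mean in KO light than in WT light, with a median difference of 0.05. Between KO dark and WT dark 8 of the 9 had a higher mean in KO, with a median of 0.04. The cluster genes themselves also had higher means in KO dark. At an unadjusted p under 0.05 limma gave 2 of the 9 between KO light and WT light, Slc1a1 and Ezr, against 12.9% of all genes. After the exchange 4 were called higher and 1 lower in KO light than in WT light, against 8.23% of all genes called. The 4 were Slc1a1, Egr1, a transcription factor of the immediate early response, Itgb1, an integrin, and Ezr, a linker of membrane and actin. Adcy6, an adenylyl cyclase, was lower by 0.41 (SE 0.06, adjusted p = 0.000734). In the same arrangement 1 of the 9 was called higher in KO dark than in WT dark, against 0.878% of all genes. Egr1 and Slc1a1 had an unadjusted p under 0.05 there by limma. Between KO light and KO dark 3 of the 9 were past the threshold upwards and 1 downwards, against 13.3% of all genes. Slc1a1, the neuronal glutamate transporter EAAC1, had 9.67, 9.54 and 9.18 in KO light and 9.17, 9.29 and 9.26 in WT light, with 9.87 in the array labelled WT dark replicate 4, the highest of all. Its difference was 0.22 (SE 0.10, adjusted p = 0.367), or 0.45 (SE 0.07, adjusted p = 0.00165) with the exchanged arrays. In the dark it had 9.27, 9.20 and 9.32 in KO dark and 9.08, 9.16 and 9.06 in WT dark replicates 1 to 3, so that in the dark Slc1a1 and Mir183 were both higher in every KO array than in these WT arrays. Over 13 arrays r was -0.68 with Mir183, -0.66 with Mir96 and -0.77 with Mir182, with the 3 arrays of high Slc1a1 in the lower part of the range of the cluster. By ranks the relation was weaker, with a Spearman rho of -0.41, -0.41 and -0.51 in that order. Of 6 measured genes named as targets of miR-204 and miR-211 0 were called in any comparison, with a median of 0.04 between KO light and WT light as labelled and 0.08 with the exchanged arrays. An unadjusted p under 0.05 was reached there by 0 of the 6 as labelled and by 1, Tgfbr2, after the exchange.

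**Figure D4:**
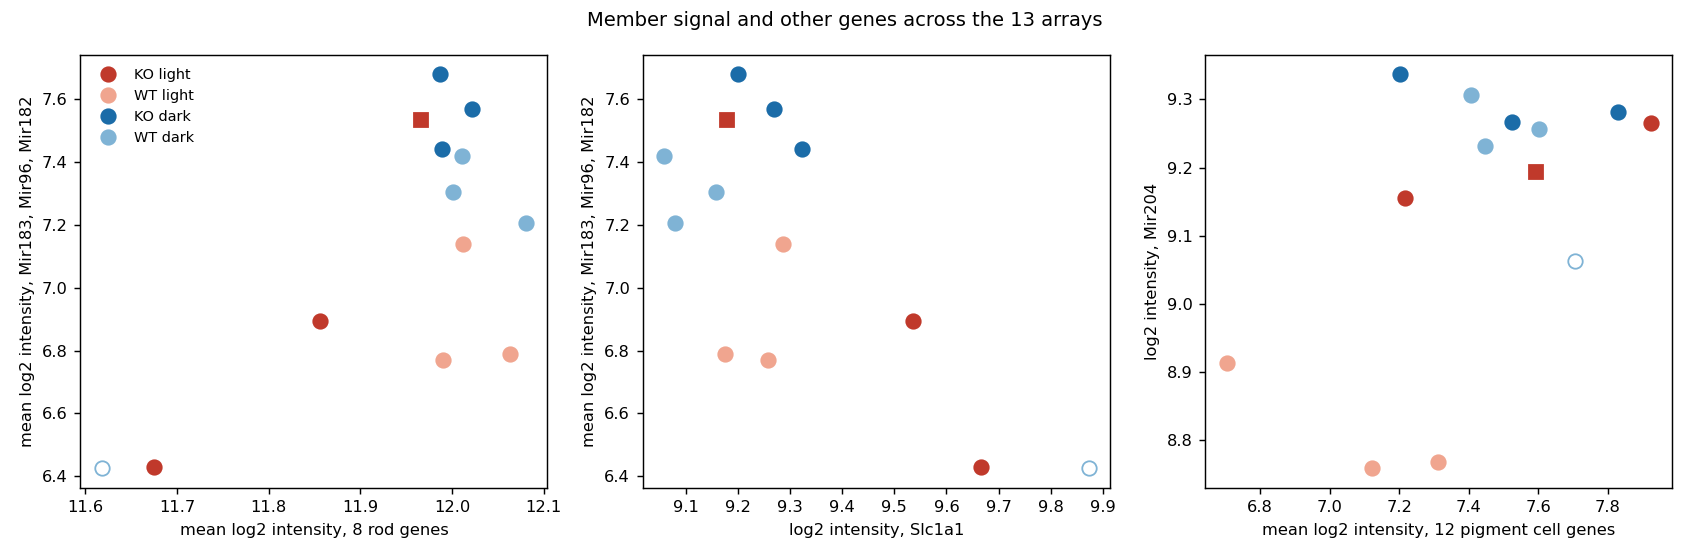
The mean log2 intensity of Mir183, Mir96 and Mir182 against that of 8 rod genes (left) and against Slc1a1 (middle), and Mir204 against 12 genes of pigment cells (right), with 1 point per array, 13 in all. The open circle is the array labelled WT dark replicate 4, and the square the array labelled KO light replicate 3, which lies with the dark arrays in the left and middle panels; the 3 WT light arrays lie lowest in Mir204.

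The machinery that makes and carries microRNAs was measured by 17 genes, from the nuclear processor Drosha to the Argonaute proteins. As labelled limma called 0 of 17 in any comparison, and 3 of 17 had an unadjusted p under 0.05 between KO light and WT light, against 12.9% of all genes. After the exchange Dgcr8, the partner of Drosha, was called higher in KO light than in WT light (0.31, SE 0.06, adjusted p = 0.00648), and no other of the 17 was called there, against 8.23% of all genes. In the same arrangement and between light and dark, Ran, which moves precursors out of the nucleus, was called higher in KO light (0.50, SE 0.07) and in WT light (0.33, SE 0.07). Tnrc6c, a scaffold of the silencing complex, was called lower in KO light (-0.25, SE 0.05) and the Argonaute gene Ago4 in WT light (-0.23, SE 0.05). These are 2 of 17 in each genotype, against 13.3% of all genes in KO and 4.41% in WT mice. Drosha, Dicer1 and Ago2 were called in no comparison.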

How the data were processed

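Retinal RNA was measured on 13 Affymetrix Mouse Gene 1.0 ST arrays. The deposited values are linear probe set intensities, which the authors had normalized between arrays. How they summarized and normalized them, the genome build and software versions are not given in the sources used, which name Partek and Bioconductor for the statistics. No value for background was used, so dim probe sets were kept, and the number of arrays limits the precision.

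Intensities were taken to log2. Of 34760 probe sets 21640 carry 1 symbol in the platform annotation. They were averaged per gene (19937 genes). With limma 3.58.1 (R 4.3.3) 1 model of the 4 groups was fitted over 12 arrays, with Benjamini-Hochberg adjustment over all genes. The fit was also run on simulated data, for the comparison of KO dark with WT dark. With 3 arrays a group the smallest exact permutation p is 0.1. Labels do not say that the mice were littermates or of separate cohorts.

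The members and lists were chosen with earlier results of these data known. Named genes are the members, their hosts and neighbours, Slc1a1, up to 3 called genes of each list with the largest differences, and the 3 genes most like each member. The remaining target genes, Mir181a-1 and single marker and machinery genes were picked after their values were seen. Marker lists of 8 to 12 genes stand for rods, cones and pigment cells, with 7 genes for reactive glia. Alternatives were quantile normalization, an intensity trend, leaving out dim genes, probe sets fitted singly, all 13 arrays, variances without moderation, the compared groups alone, a replicate block, each array left out in turn and the exchanged arrays, the last also with each KO light array left out in turn, which was added after seeing the data.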

Additional observations from a re-analysis of the deposited data

Results flagged for a closer look

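With replicate 4 included, the 4 WT dark arrays of Mir183 had log2 intensities of 5.43 in replicate 4 and 6.32 to 6.47 in the other 3. The gap from replicate 4 to its nearest neighbour was 0.86 of the whole range of the group, above Dixon's critical value for 4 samples, a limit that chance alone passes in about 1 of 20 groups. The same array is the one that resembled KO light replicates 1 and 2, and the comparisons as labelled do not use it.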

How the results depend on the processing

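Of the 5 genes Mir204 alone was called between KO light and WT light. No gene was called there with all 13 arrays (adjusted p = 0.067 for Mir204), without moderated variances (0.0568) and with the groups of the comparison alone (0.386), and the number called was 0 to 1 on leaving out arrays in turn. It was 3 with the exchanged arrays and without KO light replicate 2. For light against dark the numbers are a description. Between KO light and KO dark 3 genes were past the threshold with the exchanged arrays, also without each KO light array in turn, and 0 to 3 on leaving out arrays as labelled. Between WT light and WT dark 2 were so with the exchanged arrays, also without each KO light array in turn, 2 with these groups alone and 1 to 2 on leaving out arrays. Signs turned between KO light and WT light for Mir183 with the exchanged arrays (-0.33, and -0.28, -0.45 and -0.27 without KO light replicate 1, KO light replicate 2 and the added array in turn) and, as labelled, without KO light replicate 3 (-0.27) and WT light replicate 1 (-0.04), with a range of -0.27 to 0.32 on leaving out arrays. For Mir96 the values with the exchanged arrays were -0.21, and -0.11, -0.39 and -0.11, and -0.11 to 0.38 on leaving out arrays. Mir182 turned to 0.25 without KO light replicate 1 and 0.10 without WT light replicate 2 (-0.34 to 0.25 on leaving out arrays). Mir211 turned between KO dark and WT dark without KO dark replicate 2 (0.22), WT dark replicate 1 (0.07) and WT dark replicate 2 (0.04), with a range of -0.31 to 0.22. Over all alternatives Mir211 ran from -0.36 to 0.06 between KO light and KO dark and from -0.22 to 0.15 between WT light and WT dark. The difference of the light responses ran from -0.59 to 0.18 for Mir96, from -0.76 to 0.07 for Mir182 and from -0.38 to 0.14 for Mir211. The cause was not tested. The exchange changes which array is KO light, and leaving arrays out changes the number of samples.

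The number of genes called over all alternatives was 1 to 203 between KO dark and WT dark (15 as labelled), 0 to 2069 between KO light and WT light (35), 0 to 2990 between KO light and KO dark (20) and 9 to 983 between WT light and WT dark (86). Replicate numbers do not pair the arrays: of 18 pairs of equal number 2 had a correlation of deviations over 0.1, from -0.19 to 0.22. A replicate block changed no call of the 5 genes, with 1 called between KO light and WT light and 0 between KO dark and WT dark, and it called 11 and 13 genes of all.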
